A study of Homo sapiens with 4 samples.

Results

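HOGA1 encodes the mitochondrial enzyme that completes hydroxyproline breakdown, and it is described here with 7 genes of proline and glyoxylate metabolism: GRHPR, ALDH4A1, PRODH, PYCR1, ALDH18A1, GOT1 and GOT2. These 8 genes were picked by symbol from 59409 in the table of TPM, transcripts per 1000000, a level corrected for gene length and for the total of the library. All 8 passed a filter of 1 TPM in at least 2 libraries, as did 15815 genes in all. HOGA1 was picked because its level differed between the groups, so the differences of all 8 genes are given as a description, without a test.

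Polyadenylated RNA was measured in 786-O, a line of human clear cell renal carcinoma whose cells lack functional VHL. The DEK knockout (genotype DEK KO, 2 libraries) was made by infecting cells that express Cas9 with lentivirus carrying guides against DEK, followed by sorting of single cells. It was compared with a negative control (genotype WT, 2 libraries), named for Cas9 in the file, and the labels describe the parent of the knockouts as a clone that expresses Cas9. No label ties a knockout library to a clone or says whether libraries of a group were grown separately, so a p-value here reflects the spread among 4 libraries and possibly only technical variation.

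Hydroxyproline is released mainly when collagen is turned over, and it is broken down in mitochondria of the liver and the kidney proximal tubule. PRODH2 and ALDH4A1 oxidise it, GOT2 removes the amino group, and HOGA1 splits the product into pyruvate and glyoxylate. GRHPR then reduces glyoxylate to glycolate, which keeps it from becoming oxalate, and loss of HOGA1 or of GRHPR in people causes a form of primary hyperoxaluria. Proline itself is made from glutamate by ALDH18A1 and PYCR1 and oxidised back by PRODH and ALDH4A1, while GOT1 and GOT2 exchange amino groups between aspartate and glutamate in cytosol and mitochondria.

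DEK, a chromatin protein and the targeted gene, had 31.4 and 15.7 TPM in the knockouts, against 95.02 and 76.3 TPM in the controls (log2 difference -1.89, SE 0.33, limma adjusted p = 0.030, and adjusted p = 0.14 and 0.10 when control 1 or control 2 was left out). The depth, estimated from the smallest steps between TPM values, was 35.8 to 40.1 in units of 1000000 reads. Of the renal epithelial markers checked, 6 of 6 reached 1 TPM, with PAX8 at 140 and 160 TPM in the knockouts and 153 and 142 TPM in the controls. Of the clear cell carcinoma markers, 3 of 5 reached 1 TPM: VIM had 8046 and 8346 TPM in the knockouts and 7352 and 7215 TPM in the controls, EPAS1 had 84.4 and 77.7 TPM in the knockouts and 67.3 and 66.9 TPM in the controls, and VEGFA had 395 and 491 TPM in the knockouts and 181 and 175 TPM in the controls. The other 2, CA9 and NDUFA4L2, stayed below 0.4 TPM. Leukocyte and endothelial markers reached 1 TPM in 0 of 8 cases, and of the fibroblast and hepatocyte markers COL1A1 (at most 2.33 TPM) and SERPINA1 did, the last with 54.6 and 76.1 TPM in the knockouts and 24.9 and 21.3 TPM in the controls. In bulk RNA, fewer cells that express a gene and less of its RNA per cell cannot be told apart.

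The promoter windows of HOGA1, ALDH18A1 and GRHPR are shown because HOGA1 and ALDH18A1 were the members that were lower in both knockouts than in both controls, while GRHPR, the enzyme that follows HOGA1, hardly differed. ALDH18A1 was only 1.19-fold lower, and 39% of all tested genes were lower without overlap. Each is the 250 bases before the RefSeq start (GRCh38.p14, gene strand, 5′ to 3′), at chr10:97584139-97584388 on the plus strand for HOGA1, chr10:95656712-95656961 on the minus strand for ALDH18A1 and chr9:37422446-37422695 on the plus strand for GRHPR. Capitals mark CACGTG, the E-box letters.
HOGA1: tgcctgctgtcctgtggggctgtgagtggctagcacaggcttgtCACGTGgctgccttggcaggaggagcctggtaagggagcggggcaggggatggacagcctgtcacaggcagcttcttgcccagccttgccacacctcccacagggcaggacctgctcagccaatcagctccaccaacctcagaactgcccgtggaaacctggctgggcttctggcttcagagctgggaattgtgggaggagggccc
ALDH18A1: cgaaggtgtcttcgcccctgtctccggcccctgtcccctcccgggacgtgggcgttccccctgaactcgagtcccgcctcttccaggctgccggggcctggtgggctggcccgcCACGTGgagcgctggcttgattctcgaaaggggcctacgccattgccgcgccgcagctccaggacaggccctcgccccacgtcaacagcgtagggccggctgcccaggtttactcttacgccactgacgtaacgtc
GRHPR: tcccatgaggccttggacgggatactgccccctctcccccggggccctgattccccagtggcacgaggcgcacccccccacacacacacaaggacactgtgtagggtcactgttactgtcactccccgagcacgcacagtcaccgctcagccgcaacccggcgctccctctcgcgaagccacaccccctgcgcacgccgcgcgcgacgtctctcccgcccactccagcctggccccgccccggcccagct

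RefSeq windows were found for 6 of the 8 genes, and CACGTG, searched on both strands, was in those of HOGA1 and ALDH18A1. It was in neither of the 2 windows of ANKRD2, a gene beside HOGA1 that was also lower in the knockouts and is described below. Of all 35116 promoter windows of that length, 6.34% hold CACGTG. In HOGA1 it begins 206 bases before the RefSeq start. Each copy of CACGTG also holds ACGTG on either strand, letters found in 18.5% of all windows and also in that of GOT2. GCGTG, in 32.2% of windows, was found for GRHPR, GOT1 and GOT2, and TGATGNAA, in 3.14%, for GOT1. TATAAA, in 10.7% of windows, was in none of the windows of the 6 genes. These matches describe letters only and do not show binding. The windows shown were chosen by the difference between the groups, so nothing is read from which of them hold CACGTG.

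HOGA1 stood far below its control level in both knockouts. It lies on chromosome 10 from 97584323 to 97612802 on the plus strand (GRCh38) and had 13.7 and 6.98 TPM in the knockouts, against 83.1 and 81.6 TPM in the controls. The knockout mean of 10.3 ± 4.74 TPM was 12.5% of the control mean of 82.4 ± 1.07 TPM (SD, n = 2 per group), 7.97-fold lower. The groups did not overlap, and the controls were nearly equal. The knockouts were unequal: measured against the control mean, HOGA1 was 6.02-fold lower in knockout 1 and 11.8-fold lower in knockout 2. The difference in log2(TPM + 1), a scale on which low genes appear to change less, was -2.95 (SE 0.30), the 8th lowest of 15815 tested genes. By level, HOGA1 was above 87.6% of tested genes in the controls and above 47.4% in the knockouts.

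The HOGA1 level rested on many reads, estimated at 527 and 302 in the knockouts and at 3489 and 3553 in the controls. The genes that overlap it on the same strand stayed below 1 TPM in every library. Reads that they share with HOGA1 cannot be told apart in values summed by gene. C10orf62, which lies inside HOGA1, had 0.178 and 0 TPM in the knockouts, against 0.814 and 0.471 TPM in the controls, and the readthrough gene AL355315.1 did not exceed 0.0535 TPM in any library.

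GRHPR, the glyoxylate and hydroxypyruvate reductase, had 84.9 and 78.8 TPM in the knockouts and 83.7 and 79.0 TPM in the controls, so the groups overlapped. Its means were 81.9 ± 4.30 TPM in the knockouts and 81.3 ± 3.28 TPM in the controls (SD, n = 2 per group), and its log2 difference was 0.01 (SE 0.08). In the controls HOGA1 and GRHPR were at about the same level, and in the knockouts they were not. The ratio of HOGA1 to GRHPR within a library was 0.161 and 0.0886 in the knockouts, against 0.994 and 1.03 in the controls.

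**Figure D1:**
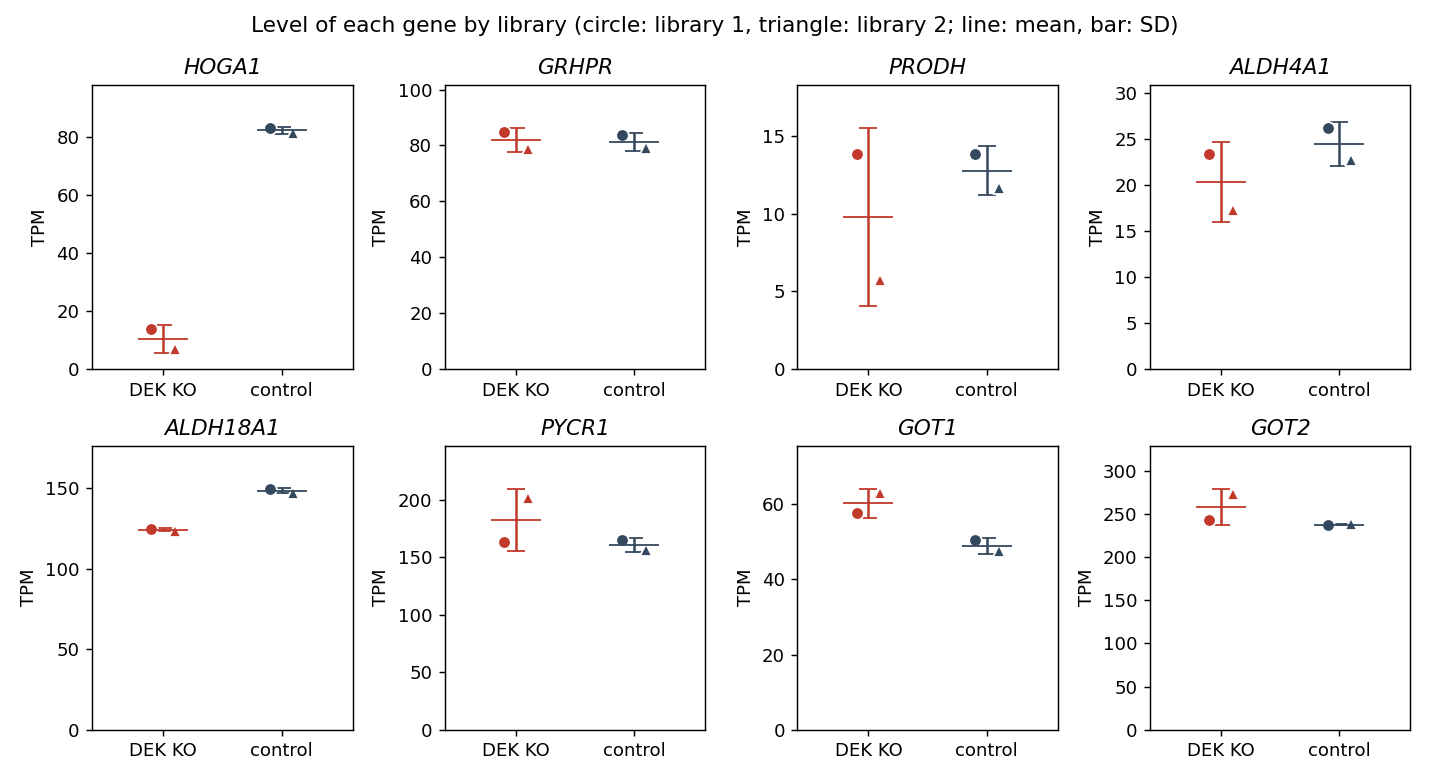
TPM of the 8 genes (vertical axes, each from 0) in DEK knockout and control libraries, with circles for library 1, triangles for library 2, lines for group means and bars for the SD of 2 libraries. HOGA1 is at 13.7 and 6.98 TPM in the knockouts and above 81 TPM in the controls, while GRHPR is at 78.8 to 84.9 TPM in all 4 libraries.

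The genes of proline oxidation were uneven between the knockouts. PRODH, proline dehydrogenase (chromosome 22), had 13.8 and 5.75 TPM in the knockouts, against 13.9 and 11.7 TPM in the controls. Knockout 1 was thus at the level of control 1, and knockout 2 was below both controls. ALDH4A1, the next enzyme of proline and hydroxyproline oxidation (chromosome 1), had 23.4 and 17.3 TPM in the knockouts, against 26.2 and 22.8 TPM in the controls, and the groups overlapped. The log2 differences were -0.46 (SE 0.39) for PRODH and -0.27 (SE 0.17) for ALDH4A1. With knockout 2 left out they were 0.11 and -0.06, and with knockout 1 left out -1.02 and -0.48, so knockout 2 sets both values. PRODH is overlapped on the other strand by DGCR6, which had 6.08 and 5.41 TPM in the knockouts, against 3.67 and 3.30 TPM in the controls, and it has a pseudogene copy nearby, so its values are uncertain to that extent. PRODH2, which starts hydroxyproline breakdown, had 0.193 and 0.114 TPM in the knockouts, against 0.648 and 0.624 TPM in the controls, and was too low to be tested.

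The genes of proline synthesis were expressed more strongly and differed little. ALDH18A1, which makes pyrroline carboxylate from glutamate, had 125 and 124 TPM in the knockouts, against 150 and 147 TPM in the controls. The libraries of each group were close together and the groups did not overlap, with a knockout mean 1.19-fold lower (log2 difference -0.25, SE 0.06). PYCR1, a reductase that completes proline synthesis, had 163 and 201 TPM in the knockouts, against 165 and 157 TPM in the controls, so that knockout 2 was above the controls and knockout 1 lay between them. Its log2 difference was 0.17 (SE 0.12), it was 0.06 once the trend of each library with GC content was removed, and it was 0.02 without knockout 2. The ratio of PYCR1 to PRODH within a library was 11.8 and 35.1 in the knockouts, against 11.9 and 13.4 in the controls, with knockout 2 alone above the controls.

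Both aspartate aminotransferases were slightly higher in the knockouts. GOT1, the cytosolic enzyme, had 57.6 and 63.0 TPM in the knockouts, against 50.4 and 47.5 TPM in the controls, a ratio of means of 1.23 and a log2 difference of 0.29 (SE 0.09). GOT2, the mitochondrial enzyme, had 243 and 273 TPM in the knockouts, against 237 and 238 TPM in the controls, a ratio of means of 1.09 and a log2 difference of 0.12 (SE 0.08). The GOT2 log2 difference was 0.03 without knockout 2 and 0.20 without knockout 1, so it came mainly from knockout 2. That of GOT1 was 0.23 and 0.36 in the same fits. For neither gene did the groups overlap. GOT2 has processed pseudogenes, which had at most 0.149 TPM each. The ratio of GOT1 to GOT2 was 0.237 and 0.231 in the knockouts, against 0.213 and 0.199 in the controls.

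HOGA1 thus differed from its companions in size. The other 7 log2 differences lay between -0.46 and 0.29, and the median over the 8 genes was -0.12, beside -0.06 over all tested genes. Of the 8, HOGA1 and ALDH18A1 were lower and GOT1 and GOT2 higher with groups that did not overlap, and over all tested genes 39% were lower and 29.2% higher without overlap, 68.3% together. Of the 8, 1 (HOGA1) met the rule of a limma adjusted p under 0.05, beside 17.7% of tested genes. The choice of the genes used this contrast, so nothing is read from these counts.

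**Figure D2:**
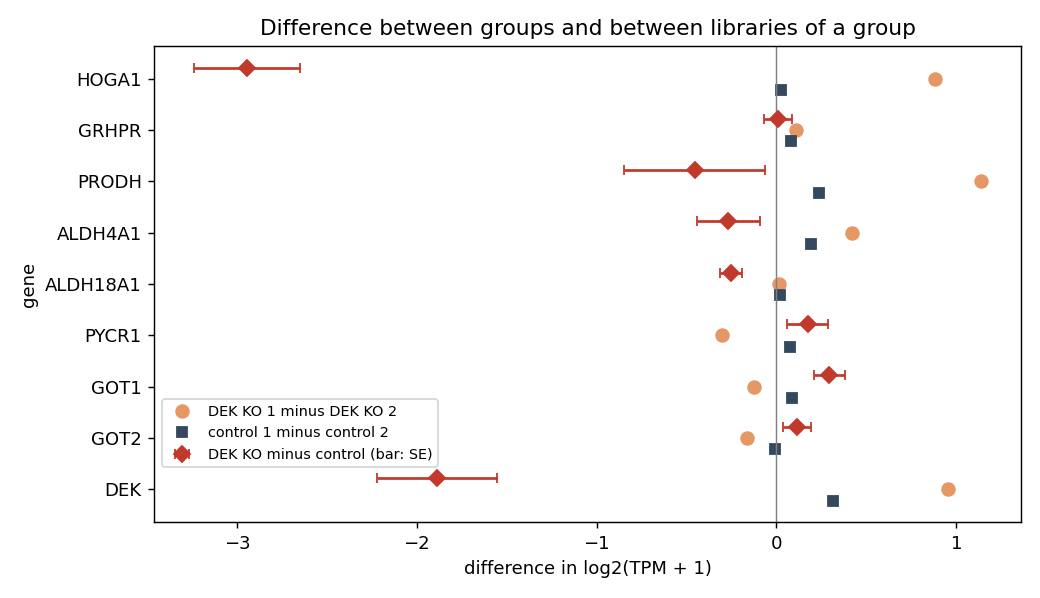
Differences in log2(TPM + 1) for the 8 genes and DEK, with diamonds for DEK knockout minus control (bar: SE), circles for knockout 1 minus knockout 2 and squares for control 1 minus control 2. HOGA1 (0.88), PRODH (1.14) and DEK (0.96) have the widest gaps between the knockouts, and for PRODH that gap exceeds the difference between the groups in size.

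The knockout libraries were further apart than the controls, for most of these genes as over the transcriptome. The median size of the gap over tested genes was 0.19 between the knockouts and 0.10 between the controls, in log2(TPM + 1). The gap between the knockouts was larger than that of 95% of tested genes for HOGA1, of 97.6% for PRODH and of 96.0% for DEK. HOGA1, GRHPR, PRODH, ALDH4A1 and DEK were lower in knockout 2 than in knockout 1, while PYCR1, GOT1 and GOT2 were higher. ALDH18A1 was the exception, with a gap of 0.01 between the knockouts and 0.02 between the controls. The ratio of HOGA1 to DEK was 0.436 and 0.444 in the knockouts, against 0.875 and 1.07 in the controls. These values are RNA only, so the DEK level does not measure how much DEK protein remained. How far DEK bears on HOGA1 was not tested.

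Positions were not used to choose the genes, so the surroundings of each member were examined by the same fit over all tested genes (limma, Benjamini-Hochberg adjustment). HOGA1, ALDH18A1 and GOT1 share chromosome 10, at starts of 97584323, 95605929 and 99396870. HOGA1 was lower with groups apart, ALDH18A1 slightly lower and GOT1 slightly higher, so their directions differed. The median log2 difference of 595 other tested genes on chromosome 10 was -0.14. The 22 tested genes that start within 1 Mb of HOGA1 had a median of -0.11, and the 9 and 14 around ALDH18A1 and GOT1 had medians of -0.18 and 0.00.

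Beside HOGA1, the gene immediately upstream fell too. ANKRD2, a muscle ankyrin repeat gene, lies on the same strand of chromosome 10 from 97572499 to 97583884 and ends 438 bases before HOGA1 begins. It had 1.04 and 0.265 TPM in the knockouts, against 9.54 and 8.21 TPM in the controls, which corresponds to an estimated 14 and 4 reads in the knockouts and 140 and 125 reads in the controls. The groups were far apart, with a 13.6-fold lower mean in the knockouts (log2 difference -2.62, SE 0.28, adjusted p = 0.015). The ANKRD2 fall was 8.53-fold in knockout 1 and 33.5-fold in knockout 2, so knockout 2 was the lower for ANKRD2 as for HOGA1. Whether reads of ANKRD2 and HOGA1 come from separate transcripts cannot be seen in values summed by gene.

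The next genes on either side did not fall. UBTD1, the next gene upstream, had 55.4 and 64.5 TPM in the knockouts and 45.4 and 42.8 TPM in the controls (log2 difference 0.43, SE 0.10, adjusted p = 0.052). MORN4, a small MORN repeat gene on the other strand whose end lies 1750 bases past the end of HOGA1, rose to 9.05 and 12.1 TPM in the knockouts, against 3.78 and 5.16 TPM in the controls (log2 difference 1.08, SE 0.21, adjusted p = 0.036). PI4K2A, the following gene, had a log2 difference of 0.20 (SE 0.10, adjusted p = 0.20). Of the 22 neighbours, 3 fell and 1 rose, beside 8.67% of tested genes called lower and 9.06% called higher. Those that fell were ANKRD2, the glycolytic mutase gene PGAM1 (log2 difference -0.67, adjusted p = 0.033) and the palmitoyltransferase gene ZDHHC16 (-0.37, adjusted p = 0.042). The 4 calls rest on both controls: without control 1 or control 2 the adjusted p of ANKRD2 was 0.093 or 0.077, and none of the other 3 passed. MORN4 also missed the threshold without knockout 2 (adjusted p = 0.053), and ZDHHC16 with median ratio scaling (0.052) or a replicate block (0.063). None of the 4 passed without the filter on low values, and with a constant variance prior ANKRD2 alone did (adjusted p = 0.032).

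**Figure D3:**
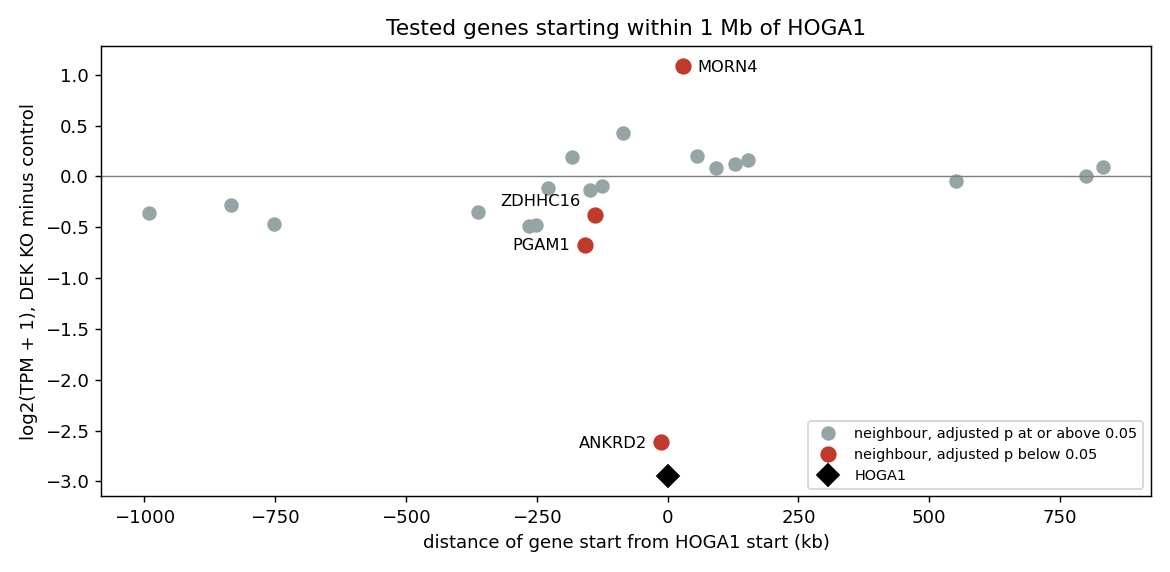
DEK knockout minus control in log2(TPM + 1) for 22 tested genes (circles, red where the limma adjusted p is below 0.05) by the distance of their start from that of HOGA1 (black diamond). ANKRD2 at -2.62 is next to HOGA1 at -2.95, and the other neighbours lie between -0.67 and 1.08.

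Around the other members, levels of neighbours gave a different picture for PRODH and ALDH4A1. The 25 tested neighbours of PRODH had a median log2 difference of 0.28, and chromosome 22 as a whole 0.22, the highest of 23 chromosomes, whereas PRODH itself was at -0.46. Between the knockouts these neighbours differed by a median of -0.02, against 1.14 for PRODH, so the PRODH gap was not shared by the genes around it. For ALDH4A1 the gap between the knockouts was 0.42, the median over its 16 neighbours 0.28, and that over 1602 genes of chromosome 1 was 0.17, the highest of the 23 chromosomes. The part of the surrounding genes' shift in the ALDH4A1 gap was not tested. Neighbours of GRHPR, PYCR1 and GOT2 had median log2 differences of 0.01, -0.06 and 0.00.

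The rest of the pathway was described through 5 lists of 69 further genes, of which 45 were expressed highly enough to be tested. Of these 45, 8 rose and 9 fell in the knockouts, together 37.8% of them, beside 17.7% of all tested genes, and their median log2 difference was -0.01. The lists were chosen with earlier results of these data known and were not matched to other genes by level. Nothing is therefore read from the larger share. The list for collagen hydroxylation held 6 of the rises and 1 of the falls. Over all tested genes 1433 rose and 1371 fell, so that 51.1% of calls were rises, and with libraries scaled by the median ratio 1588 rose and 955 fell (62.4%). In all 17 called list genes both knockouts lay on the same side of both controls. Their adjusted p depended on having 2 controls: without control 1 none of the 17 passed and without control 2 only 1 did, while 16 of the 17 had an unadjusted limma p under 0.05 in either case. All 17 kept their direction with either control left out, and 13 of them passed once the GC trend was removed.

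Around glyoxylate, transport genes and DDO changed, in different directions. SLC26A1, an anion exchanger that carries oxalate and sulfate, fell to 2.76 and 2.79 TPM in the knockouts, against 7.38 and 7.77 TPM in the controls (2.73-fold, log2 difference -1.18, SE 0.14, limma adjusted p = 0.017). SLC26A6, an apical exchanger of oxalate and chloride, rose to 21.3 and 19.1 TPM in the knockouts, against 13.2 and 13.2 TPM in the controls (log2 difference 0.58, SE 0.11, adjusted p = 0.033). DDO, D-aspartate oxidase, rose 2.25-fold to 6.89 ± 0.0720 TPM in the knockouts, against 3.06 ± 0.175 TPM in the controls (SD, n = 2 per group, limma adjusted p = 0.023). Those were the changes among 6 tested genes of the list, 2 upward and 1 downward, beside 9.06% of all tested genes called higher and 8.67% called lower. HYI, a hydroxypyruvate isomerase, had a log2 difference of -0.36 (adjusted p = 0.051).

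Of the 11 further glyoxylate genes, 5 were below the filter on low values. Lactate dehydrogenase, which can also convert glyoxylate, was abundant: LDHA had 1672 and 1533 TPM in the knockouts, against 1568 and 1705 TPM in the controls (log2 difference -0.03, limma adjusted p = 0.80), and LDHB had 132 and 118 TPM in the knockouts, against 154 and 183 TPM in the controls (log2 difference -0.43, adjusted p = 0.061). Among the 5 low genes, AGXT, the peroxisomal aminotransferase that turns glyoxylate into glycine, and DAO, an oxidase of D-amino acids and glycine, were listed at 0 in all 4 libraries. HAO1, glycolate oxidase, was at 0 in both knockouts and reached 0.0563 TPM in the controls. AGXT, DAO, HAO1 and both lactate dehydrogenase genes were named after their values were seen.

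Of the 7 further proline genes tested, 2 fell, beside 8.67% of all tested genes called lower. With so few genes, nothing is read from that count. PEPD, prolidase, which frees proline and hydroxyproline from dipeptides, fell to 89.9 and 88.8 TPM in the knockouts, against 117 and 113 TPM in the controls (log2 difference -0.36, SE 0.07, limma adjusted p = 0.032). SLC36A4, a transporter with affinity for proline, fell to 4.62 and 3.98 TPM in the knockouts, against 8.58 and 7.78 TPM in the controls (log2 difference -0.79, adjusted p = 0.033). OAT, ornithine aminotransferase, had a log2 difference of -0.11 (adjusted p = 0.32).

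Genes that supply and use glutamate, the precursor of proline, fell in 3 of 12 tested cases and rose in 0 (1 at an unadjusted limma p under 0.05). Over all tested genes 8.67% were called lower and 9.06% higher, and with so few genes nothing is read from the count. GLUD1, glutamate dehydrogenase, fell to 170 and 148 TPM in the knockouts, against 262 and 274 TPM in the controls (log2 difference -0.75, SE 0.09, limma adjusted p = 0.017), although reads of its near-identical copies may be assigned to it. SLC25A13, a mitochondrial carrier of aspartate and glutamate, fell by 0.46 on the log2 scale (adjusted p = 0.047). GPT2, the mitochondrial alanine aminotransferase, had a log2 difference of 0.48 (adjusted p = 0.082). Among 9 tested genes of serine and glycine metabolism 2 fell and 0 rose (1 at an unadjusted p under 0.05), likewise too few to read beside those shares. SHMT1, the cytosolic enzyme that interconverts serine and glycine, was at 59.5 and 48.4 TPM in the knockouts, against 124 and 123 TPM in the controls (2.29-fold, adjusted p = 0.014), and PSPH, phosphoserine phosphatase, fell 1.70-fold (adjusted p = 0.018), with a pseudogene copy that makes its value uncertain. PSAT1 and DLD had log2 differences of 0.49 (adjusted p = 0.087) and -0.23 (adjusted p = 0.24).

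Of 11 tested genes for the hydroxylation of proline and lysine in collagen, 6 rose and 1 fell, beside 9.06% of all tested genes called higher and 8.67% called lower, and the list had a median log2 difference of 0.39 beside -0.06 over all tested genes. P4HA2, a catalytic subunit of collagen prolyl hydroxylase, had 147 and 195 TPM in the knockouts, against 61.0 and 60.9 TPM in the controls (2.80-fold higher, log2 difference 1.46, SE 0.14, limma adjusted p = 0.014). P4HB, its other subunit and a protein disulfide isomerase, rose to 1388 and 1424 TPM in the knockouts, against 1061 and 1039 TPM in the controls (adjusted p = 0.019). P3H4, a partner of lysyl hydroxylase without its own activity, rose 2.52-fold (adjusted p = 0.013). The member that fell was P3H2, which hydroxylates proline at another carbon, with 69.6 and 70.2 TPM in the knockouts, against 121 and 123 TPM in the controls (adjusted p = 0.011). PLOD3, PLOD1 and P3H3, named to complete the count after their values were seen, had log2 differences of 0.95, 0.41 and 0.39. These rises depended on the fit: over the 5 lists together 3 genes rose and 7 fell with the variance prior held constant across levels, and 0 rose when control 1 or control 2 was left out (8 at an unadjusted limma p under 0.05 in either case).

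**Figure D4:**
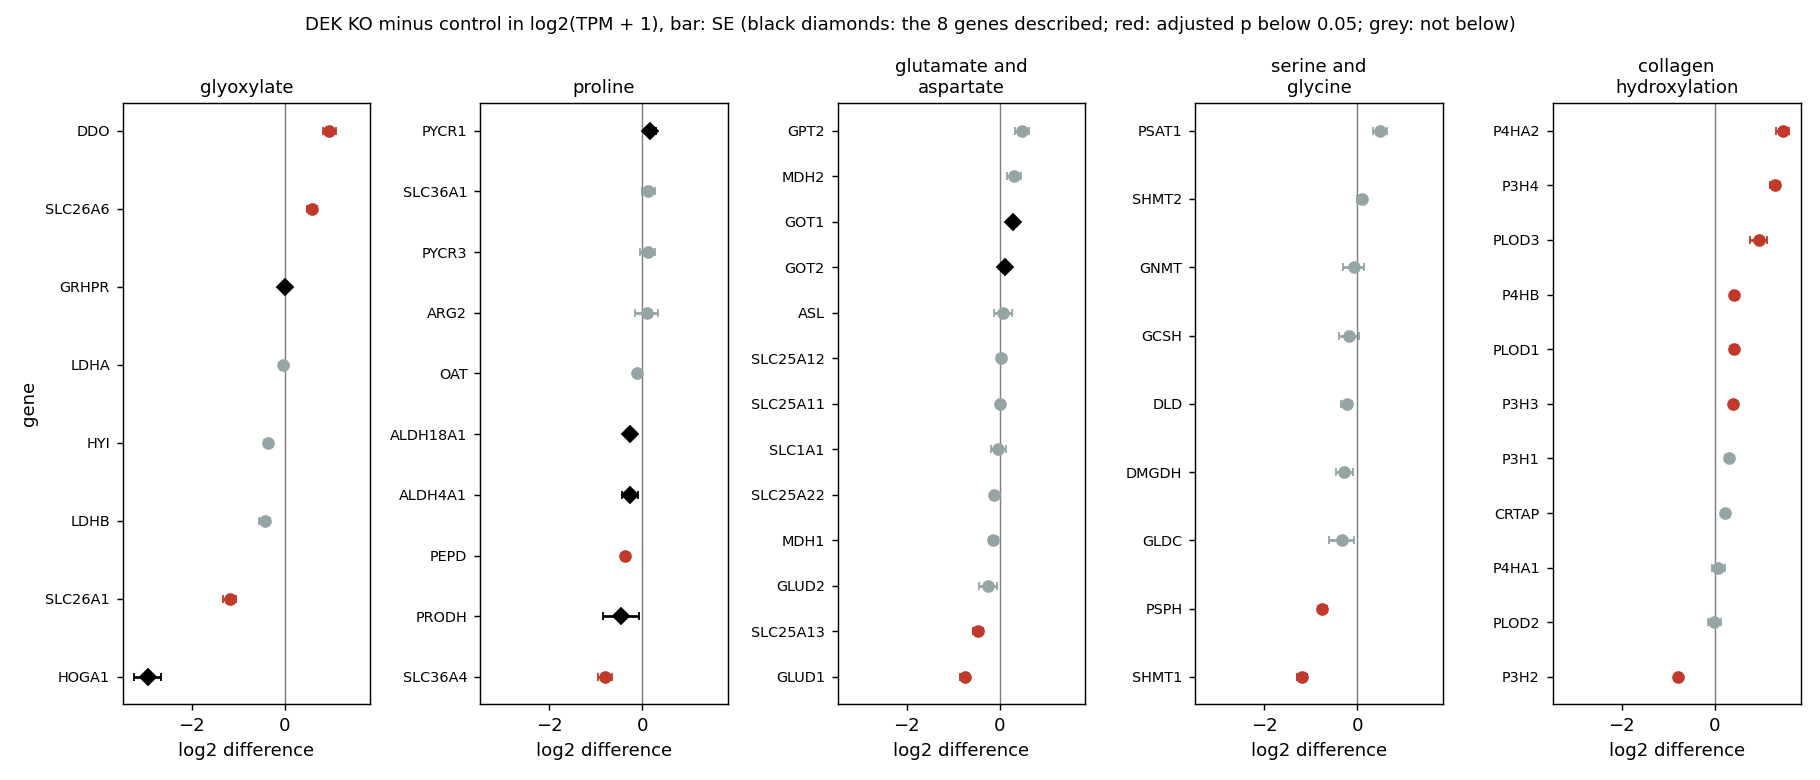
DEK knockout minus control in log2(TPM + 1) (horizontal axes, bar: SE) for tested genes of the 5 lists, with black diamonds for the 8 genes described, red for other genes with a limma adjusted p below 0.05 and grey for those not below. Of the genes drawn, HOGA1 at -2.95 lies lowest and P4HA2 at 1.46 highest.

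Among the 5 tested genes whose profile over the 4 libraries lay nearest to that of HOGA1 were ALDH1A1, GFRA1, ANKRD2 and PDZK1, by Euclidean distance between log2(TPM + 1) values centred on each gene's mean. Their distances were 0.07 for ALDH1A1, 0.19 for GFRA1 and up to 0.41 for PDZK1. ANKRD2, at 0.37, is also the adjacent gene described above. These 4 were low in both knockouts and lowest in knockout 2. DEK lay at 1.08, with 0.221% of tested genes nearer. None of the other 7 members was close: PRODH, the nearest, was at 2.50, with 13.8% of tested genes nearer. With 4 libraries a short distance shows a like level pattern and nothing further.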

How the data were processed

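The authors deposited a table of TPM for 59409 gene symbols with 1 column per library, and each column sums to 1000000. The submitters' processing notes name DESeq2 1.36.0, featureCounts 2.0.1, STAR 2.7.8a, cutadapt 1.18 and hg38, with no roles; sources used here give no annotation, gene lengths or strand setting. Titles gave groups and replicate numbers. Positions came from GENCODE 29 on GRCh38, and depth from the steps of low values with its exon lengths, of which 53.9% to 55.8% under 200 reads came out whole within 0.02, so read numbers are approximate.

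The 15815 genes reaching 1 TPM in 2 or more libraries were fitted as log2(TPM + 1) with limma 3.58.1 in R 4.3.3, with a term for group and a variance trend, and adjusted by Benjamini-Hochberg at 0.05. The procedure was tested on simulated data. Noise of every simulated library was drawn from the gap between the controls, so the wider spread of the knockouts was not covered. The smallest p that exact permutation of 2 against 2 libraries allows is 0.333, so single genes were not permuted.

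Members and lists were chosen with earlier results of these data known. Named genes were DEK, the 8 members, up to 4 further genes with the smallest p of each list, every called gene of lists with 5 or fewer calls, and the 5 profiles nearest to HOGA1; neighbours were taken by position. Some genes that the rule would name are withheld and not reported here. Replicate numbers did not pair libraries by the labels. Alternatives covered pseudocount, filter, scaling, variance prior, replicate block, GC content and leaving out each library.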

Additional observations from a re-analysis of the deposited data

How the results depend on the processing

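HOGA1 stayed lower in the knockouts under all 12 alternatives run, with log2 differences from -3.39 to -2.51, the ends being knockout 1 or knockout 2 left out. ALDH4A1, ALDH18A1, PYCR1, GOT1 and GOT2 kept their sign in all 12, PRODH in 11 and GRHPR in 8. With no filter on low values (31270 genes), 26 genes rose and 0 fell by adjusted p, 0 list genes rose and 0 fell (by unadjusted limma p under 0.05, 3505 and 3663 of all genes and 13 and 13 of the list genes), and DEK was at -1.89 (adjusted p = 0.096). Without the variance trend 866 genes rose and 571 fell, 3 list genes rose, and DEK was at -1.89 (adjusted p = 0.056). Leaving out each library in turn gave 44 to 2375 rises and 1 to 3135 falls over all genes, and 0 to 14 rises and 0 to 13 falls among list genes. DEK then lay between -2.37 and -1.41. With a replicate block 1423 genes rose and 1548 fell, 8 list genes rose and 8 fell, and HOGA1 was at -2.95. Replicate 1 minus replicate 2 correlated over genes with r = 0.099 between knockouts and controls. A low correlation over all genes cannot exclude that same-numbered libraries shared a step, and the labels do not say. Leaving out a control leaves 1 library whose spread is assumed to be that of the knockouts, which lie further apart, and fewer calls followed. Leaving out a knockout takes the spread from the controls alone, which lie closer together, and more calls followed in all. The main fit pools both spreads. Depth limits ANKRD2, PRODH2 and other genes below 1 TPM. The filter of 5 TPM, a pseudocount of 0.1, both scalings, GC removal and the block changed no count by over 1.5 times.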

Other observations

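HOGA1 is normally a gene of the kidney proximal tubule, and other genes of that segment were mostly below 1 TPM in these cells. Of 22 marker genes, 14 were below the filter, 3 of them listed at 0 in all 4 libraries. Of the 8 tested, 1 rose, MIOX, myo-inositol oxygenase, with 2.34 and 2.40 TPM in the knockouts, against 0.936 and 0.849 TPM in the controls (limma adjusted p = 0.043). Over all tested genes 9.06% were called higher, so nothing is read from 1 rise among 8. HNF4G had a log2 difference of -0.47 (adjusted p = 0.10). ANPEP, a brush border peptidase named after its values were seen, had 4.57 and 71.2 TPM in the knockouts, against 7.36 and 5.73 TPM in the controls, so knockout 2 alone stood apart. The median over the 8 was 0.20.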
